A study of Mus musculus with 4 samples.

Results

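Gm20644, 4932416K20Rik and Gm48353 are 3 genes annotated as non-coding that were detected in both RNA-seq libraries of mitochondria isolated from mouse brown adipose tissue and listed at 0 in both libraries of the non-mitochondrial fraction of that tissue. They were chosen by that pattern among the 17259 genes of the deposited table, so the difference between the fractions is described and not tested. The pattern was met by 3 of the 1959 listed long non-coding genes and TEC genes (gene models that await an experiment), which is 0.153%, and by 11 of all 17259 listed genes, which is 0.0637%. The 4 libraries fell into 2 groups of 2, all from wild-type mice whose age was not given in the sources used here. The labels called the first group isolated mitochondria. The titles of the second carried the word total while its treatment label named tissue minus mitochondria, and the treatment label was followed. The study, in its supplement, speaks instead of lysates of the total tissue for the RNA set beside mitochondria. In that case these libraries held the mitochondria too, and the name non-mitochondrial is here only that of the label. The labels did not say whether the libraries of a group came from separate animals, so p-values measure only the spread between these libraries.

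Long non-coding RNAs are transcripts longer than most small RNAs that are not known to be translated, and most of those studied act in the nucleus or the cytosol. Mitochondria make a small set of RNAs from their own genome and import nearly all of their proteins, whereas few RNAs of nuclear genes have been described inside them. The biotype TEC marks a gene model that rests on thin transcript evidence and awaits an experiment, and lincRNA marks a long non-coding gene between protein-coding genes. No function of the 3 genes was given in the sources used here.

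The 3 genes lay on 3 chromosomes of the build GRCm38 (mm10). Gm20644 (ENSMUSG00000093673, biotype sense_overlapping) was 1 exon of 2063 bp at chr11:98285382-98287444 on the plus strand, in the gap between Cdk12 and Neurod2. Despite that biotype, GENCODE M21 placed no other gene over it. 4932416K20Rik (ENSMUSG00000069925, lincRNA) spanned chr8:104794928-104799052 on the plus strand, inside the cluster of Ces2 carboxylesterase genes, and its 4 annotated transcripts together covered all 4125 bp of the locus. Gm48353 (ENSMUSG00000112309, TEC) was 1 exon of 1871 bp at chr10:62858124-62859994 on the minus strand, inside the span of Tet1 on the same strand and over none of its exons.

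The transcript of Gm20644 had long runs of A near its start, which are shown for this gene alone, and the 3 genes are not compared for them. The sequence, its first 203 bases, came from the GENCODE M21 transcript on GRCm38 and is written 5′ to 3′, with runs of 8 or more A in capitals.
Gm20644, chr11:98285382-98285584, plus strand: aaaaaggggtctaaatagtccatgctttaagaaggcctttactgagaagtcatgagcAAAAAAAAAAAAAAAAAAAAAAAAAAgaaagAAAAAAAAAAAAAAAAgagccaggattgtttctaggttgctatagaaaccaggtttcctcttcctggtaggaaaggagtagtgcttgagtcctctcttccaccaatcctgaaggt
The longest run of A inside the transcript of Gm20644 had 26 bases. A run of at least 20 A inside the transcript was found in 43 of the 1956 long non-coding and TEC genes with a transcript sequence (2.20%) and in 297 of 17244 listed genes (1.72%). The feature was chosen for counting after sequences of these genes had been seen.

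The normalised count of Gm20644, which is a read count divided by a size factor of its library and rounded, was 133 and 173 in mitochondria replicates 1 and 2, and 0 and 0 in the non-mitochondrial libraries. The deposited values of the mitochondria libraries rose in steps of 1 read, so these levels stood for 16 and 25 reads. 4932416K20Rik was listed at 108 and 117 in mitochondria, or 13 and 17 reads, and at 0 and 0 in the other 2 libraries. Gm48353 was listed at 92 and 104, or 11 and 15 reads, and at 0 and 0 in the other 2 libraries. By the rule that chose them, the groups did not overlap for any of the 3 genes, and replicate 2 was the higher mitochondria library for each.

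**Figure D1:**
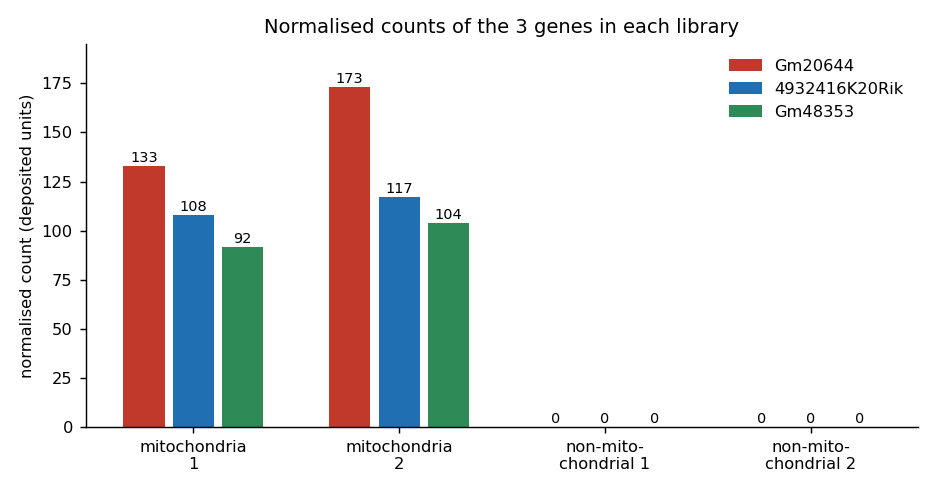
Normalised count (deposited units, linear axis from 0) of Gm20644, 4932416K20Rik and Gm48353 in each of the 4 libraries, with 1 bar per gene and library and its value above it. The mitochondria bars lie between 92 and 173, and the 6 non-mitochondrial values are 0.

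The means in mitochondria were 153 ± 28.3 (SD, n = 2) for Gm20644, 113 ± 6.36 for 4932416K20Rik and 98.0 ± 8.49 for Gm48353. They rested on 41, 30 and 26 reads in total, in libraries of 26288871 and 24910434 reads. Most of those reads belonged to mitochondrially encoded genes. Reads of nuclear genes that share no sequence with mitochondrial transcripts came to only 59288 and 67370. Scaled to these reads alone, Gm20644 stood at 270 RPM (95% exact binomial interval 154 to 438) in replicate 1 and 371 (240 to 548) in replicate 2. 4932416K20Rik stood at 219 (117 to 375) and 252 (147 to 404), and Gm48353 at 186 (92.6 to 332) and 223 (125 to 367). The intervals of the 2 replicates overlapped for every gene and cover counting error only.

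A value of 0 in the non-mitochondrial libraries is not the same as no read. There 1 unit stood for several reads, their number could not be recovered, and any value up to 0.5 units was rounded to 0. That limit is 0.678 and 0.689 CPM, taken over the same nuclear genes, in non-mitochondrial replicates 1 and 2. On that scale the lowest of the 6 mitochondria values was the 186 of Gm48353. No fold change is given, because the comparison group is listed at 0.

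The table had been filtered before deposit in a way that bears on this pattern. Only 16 listed genes were at 0 in both non-mitochondrial libraries, and none of them had fewer than 14 reads in its higher mitochondria library or fewer than 15 in both together. By contrast, 967 genes were listed with no mitochondria read and 1 unit in all over both non-mitochondrial libraries. A gene with few mitochondria reads and a 0 in both non-mitochondrial libraries was therefore not seen here, and the reads of the 3 genes are those of listed genes only.

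Just beyond the rule, 39 genes had a read in both mitochondria libraries and 1 unit over both non-mitochondrial libraries. Of these, 3 were long non-coding or TEC, with 1 and 1 reads for 2610035D17Rik, 2 and 3 for 4933406C10Rik, and 1 and 1 for Gm39041. None of the 39 reached 11 reads in both mitochondria libraries, the fewest of any of the 3 members. Their summed mitochondria reads ran from 2 to 48, so the highest was above the 41 of Gm20644. Genes of the pattern were listed only with many mitochondria reads, so the gap in reads per library follows in part from the filter. Just inside it, the protein-coding gene Slc22a30 had 14 and 2 reads, 16 in total. Of the 3 members, Gm48353 had 26 in total and 4932416K20Rik 30.

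The replicates gave similar values for each of the 3 genes. The ratio of replicate 2 to replicate 1 in normalised counts was 1.30 for Gm20644 (95% exact interval 0.665 to 2.6), 1.08 for 4932416K20Rik (0.496 to 2.43) and 1.13 for Gm48353 (0.485 to 2.72). Each interval, which covers counting error only, included 1. The comparison set was the 351 nuclear genes without a mitochondrial match that had 26 to 41 reads in total, the range of the 3 members, which are included. Of these, 5 had no read in 1 of the libraries. In the other 346, the log2 ratio of replicate 2 to replicate 1 ran from −5.57 to 4.92, with a median of 0.43 and quartiles at −0.56 and 1.25. The log2 ratios of Gm20644, 4932416K20Rik and Gm48353 were 0.38, 0.12 and 0.18. Of those 346 genes, 76 (22%) lay as near to 0 as Gm20644 or nearer, the 3 members among them. A description is given here and no test, since the rule required reads in both libraries.

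The other genes with the pattern had more of their reads in replicate 1. Apart from Gm20644, 4932416K20Rik and Gm48353, 8 protein-coding genes were at 0 in the other 2 libraries and had a read in both mitochondria libraries. Gm10719, Gm10717, Gm10721, Gm10722, Gm11168, Gm10801 and Gm21738 are predicted genes, of which 5 lay within chr9:3000922-3033289, and the last was Slc22a30. All 8 had the higher normalised count in replicate 1, from 632 against 221 for Gm10719 to 117 against 14 for Slc22a30, while the 3 non-coding genes were higher in replicate 2 by ratios whose intervals include 1. The difference between these sets was not tested. A further 5 genes, Cyp2j5, Ces2a, C4bp, Hsd17b13 and Hsd3b5, had 15 to 17 reads in replicate 1 and 0 in replicate 2.

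**Figure D2:**
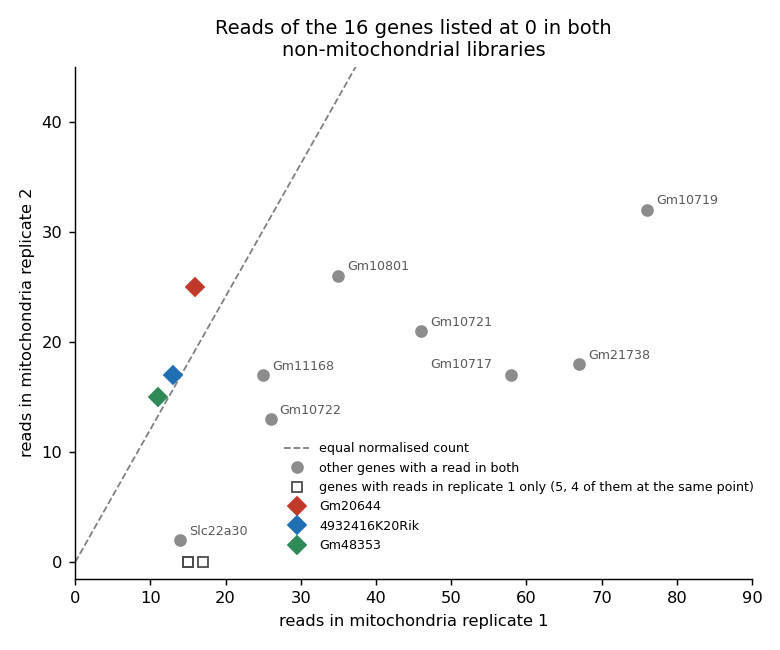
Reads in mitochondria replicate 1 (x axis) and replicate 2 (y axis) of the 16 genes listed at 0 in both non-mitochondrial libraries; the dashed line marks an equal normalised count in both. The 3 diamonds lie on the replicate 2 side of the line or next to it, and the other 13 genes lie on the replicate 1 side.

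Markers of other cell types were counted in the same libraries. Albumin (Alb), Apoa1, Apob, Ttr and Serpina1a, secreted proteins of hepatocytes, had 1281 reads in mitochondria replicate 1 and 104 in replicate 2, and summed to 175 and 5 normalised counts in the other 2 libraries. All 5 had a read in both mitochondria libraries. Acta1, Ckm, Myh4, Tnnt3 and Mylpf of skeletal muscle had 304 and 112 reads, and summed to 244 and 505 in the other 2 libraries. The nuclear RNAs Malat1, Neat1 and Kcnq1ot1 had 752 and 132 reads and summed to 16090 and 15729 in the other 2 libraries. The sums of these 3 lists were higher in replicate 1, with Mylpf the other way at 8 and 35 normalised counts, and their part in the levels of the 3 non-coding genes was not tested. The 7 brown adipocyte markers, among them Ucp1, had 200 and 639 reads and the 4 adipocyte markers 151 and 497. The 4 globin genes of blood had 27 and 91 reads. The sums of these last 3 lists were higher in replicate 2, carried by abundant genes such as Ucp1, at 1290 and 3554 normalised counts, and Fabp4, at 957 and 2823. Elovl3, Dio2, Prdm16 and Lep went the other way, at 25 and 14, 25 and 21, 25 and 0, and 17 and 7. The part of these lists was not tested either. None of the 5 male germ cell markers Prm1, Prm2, Tnp1, Tnp2 and Odf1 was listed, and the 9 listed olfactory receptor genes had 3 and 1 reads. In the non-mitochondrial libraries the brown adipocyte markers summed to 6886 and 6130 normalised counts, above the liver and skeletal muscle lists. In mitochondria replicate 1 they summed to 1665, below the 10660 of the liver list and the 2530 of the skeletal muscle list, so the markers of that library did not plainly match the tissue label. In replicate 2 the 3 sums were 4410, 718 and 773.

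Scaled to exon length, Gm20644 was the highest of the 3 genes, with 64.5 and 83.9 normalised counts per kb in mitochondria replicates 1 and 2. Gm48353 followed with 49.2 and 55.6, and 4932416K20Rik with 26.2 and 28.4. The order was the same in both libraries. Over both libraries Gm20644 had 19.9 reads per kb (95% exact Poisson interval 14.3 to 27.0), Gm48353 13.9 (9.08 to 20.4) and 4932416K20Rik 7.27 (4.91 to 10.4). The ratio of reads per kb was 1.43 for Gm20644 over Gm48353 (95% exact binomial interval 0.854 to 2.44), which includes 1. It was 1.91 for Gm48353 over 4932416K20Rik (1.09 to 3.34) and 2.73 for Gm20644 over 4932416K20Rik (1.67 to 4.53). Neither interval includes 1 at the exon lengths used. Per kb of its longest transcript, of 3556 bases, 4932416K20Rik had a mean of 31.6 normalised counts in mitochondria, against 27.3 per kb of exon. That length would bring both ratios nearer to 1, and whether their intervals would still leave out 1 was not tested. The intervals given here cover counting error only.

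The levels were set beside those of the listed long non-coding and TEC genes. Since a gene at 0 in both non-mitochondrial libraries was listed only with many mitochondria reads, a high rank of the 3 genes follows in part from the filter on the table and is no result about them. Of 1959 listed, 1542 had no mitochondria read and 50 had a read in both mitochondria libraries, and the median of those 50 was 5.09 normalised counts per kb with an upper quartile of 9.01. By mean normalised count per kb in mitochondria, Gm20644 ranked 4th, Gm48353 5th and 4932416K20Rik 8th of the 1956 genes with an exon length. The short cytosolic RNA Bc1 ranked 1st, the nuclear Malat1 2nd and Gm44386 3rd. Gm44386 is the lincRNA that the study named mitolnc. Its mitochondria values were 67 and 41, against 24 and 20 in the other group. Bc1 and Malat1 were also present in the other 2 libraries, Bc1 at 27 and 29 normalised counts and Malat1 at 14512 and 14128. Gm37144, a TEC gene ranked 6th, came nearest to the pattern among the leading genes, with 33 and 41 in mitochondria against 2 and 2 in the other 2 libraries.

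**Figure D3:**
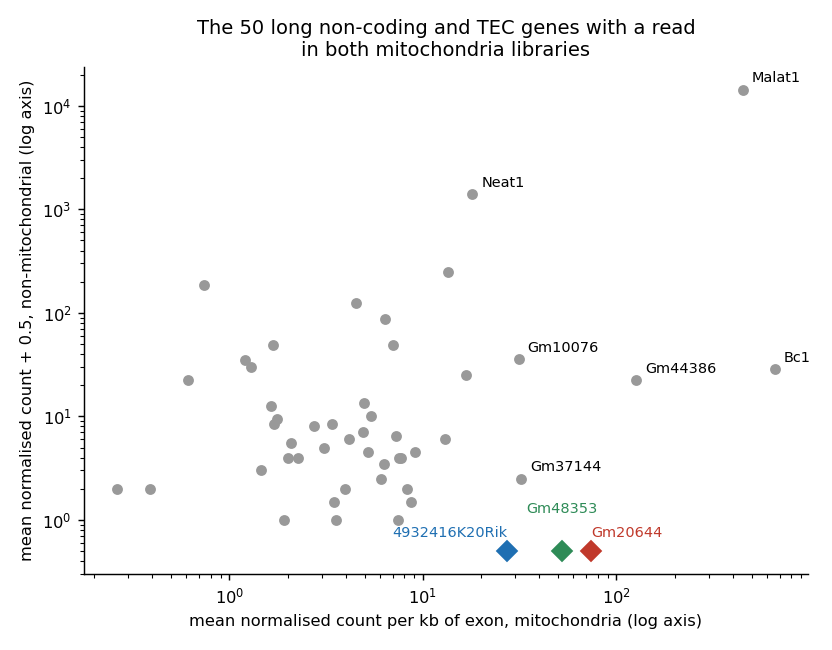
Mean normalised count per kb of exon in mitochondria (x axis, log) against mean normalised count plus 0.5 in the non-mitochondrial libraries (y axis, log) for the 50 long non-coding and TEC genes with a read in both mitochondria libraries. Gm20644, Gm48353 and 4932416K20Rik lie at the bottom, at 74.2, 52.4 and 27.3 per kb, below every other gene.

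Likeness over the 4 libraries was measured as Euclidean distance of log2(normalised count + 1). Gm48353 and 4932416K20Rik were 0.28 apart, Gm20644 and 4932416K20Rik 0.63, and Gm20644 and Gm48353 0.90. Gm11168 was nearer to Gm20644 than Gm48353 was, at 0.85, and Gm10801 and Gm10722 followed at 1.12 and 1.17. For 4932416K20Rik and Gm48353 the nearest genes were the other 2 members, and then Gm11168, at 0.94 and 1.18, and Gm10722, at 1.06 and 1.24. Gm11410, a processed pseudogene with a match to a mitochondrial transcript and values of 108, 97, 1 and 1, was 1.44 from both 4932416K20Rik and Gm48353. Since all 3 members were chosen at 0 in the same 2 libraries, a small distance between them follows in part from the choice.

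The coding capacity of the 3 transcripts differed. The longest open reading frame of 4932416K20Rik, from ATG to a stop, had 1054 codons and ran from base 27 to base 3191 of its single-exon transcript of 3556 bases, which is 89.0% of it. It was the longest among the 1217 long non-coding and TEC genes of 1500 to 4500 bases, where the median was 78 codons, and 2nd among all 1956. GENCODE gave the same span a further transcript of type pseudogene, whose first exon ended at 104797132 and whose second began at 104797135. The longest frames of Gm20644 and Gm48353 had 70 and 75 codons, near the median of 73 for all long non-coding and TEC genes. An open frame is a property of the sequence, and no protein was measured here.

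None of the 3 genes shared a stretch with a mitochondrially encoded transcript in the search used here. All 3 did share stretches with other nuclear genes. Gm20644 shared at least 50 bp at 90% identity with 160 listed genes, 4932416K20Rik with 1774 and Gm48353 with 31. For 4932416K20Rik the single-exon transcript shared such a stretch with 19 listed genes, so nearly all of the 1774 came from other annotated transcripts of the gene. The matches were not counted for each of those. In the sequences that follow, capitals mark the longest match of each gene to a listed gene, with 10 bases on either side where the transcript went on, on GRCm38 and 5′ to 3′.
Gm20644, chr11:98286945-98287081, plus strand: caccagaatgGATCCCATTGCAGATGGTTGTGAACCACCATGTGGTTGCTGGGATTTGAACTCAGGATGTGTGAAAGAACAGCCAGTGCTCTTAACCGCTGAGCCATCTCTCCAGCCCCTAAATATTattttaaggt
4932416K20Rik, chr8:104798902-104799052, plus strand: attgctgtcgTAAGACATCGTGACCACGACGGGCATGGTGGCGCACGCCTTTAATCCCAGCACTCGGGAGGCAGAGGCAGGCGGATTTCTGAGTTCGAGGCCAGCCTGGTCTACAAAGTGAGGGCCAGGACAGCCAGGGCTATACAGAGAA
Gm48353, chr10:62858502-62858597, minus strand: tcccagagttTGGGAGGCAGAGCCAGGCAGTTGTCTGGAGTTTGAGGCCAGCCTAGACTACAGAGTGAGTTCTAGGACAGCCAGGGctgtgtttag
The match of Gm20644 was to Zfp874a, with 117 bp at 90.6% identity. That of 4932416K20Rik was to Kat7, with 142 bp at 92.3%, and that of Gm48353 to Gm37019, with 77 bp at 92.2%. Their letters resemble the B1 and B2 short interspersed repeats, which occur in many copies over the mouse genome, although no repeat annotation was used here. Stretches shared at 50 bp and 90% covered 22.5% of Gm20644, 9.98% of the single-exon transcript of 4932416K20Rik and 14.3% of Gm48353. Stretches of at least the read length of 75 bases shared with any annotated gene, listed or not, covered 9.60% of Gm20644 and 5.02% of Gm48353. They covered 0% of the single-exon transcript of 4932416K20Rik, while a spliced transcript of that gene held the match of 142 bp to Kat7. The study left out reads that fell at several positions, and where along each gene its 11 to 25 reads per library lay is not given by the table.

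**Figure D4:**
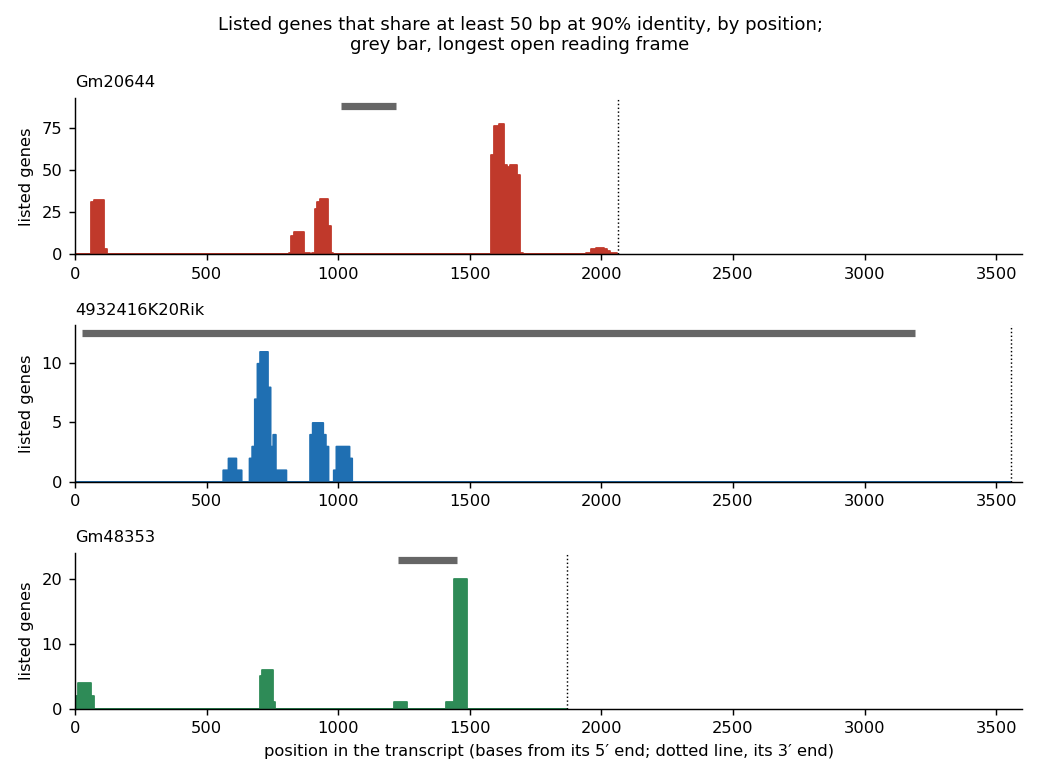
Number of listed genes that share at least 50 bp at 90% identity with each position (y axis, linear, its own scale per panel) along the longest annotated transcript of each gene (x axis, bases from the 5′ end). The matches sit in a few blocks, and the grey bar of the longest open reading frame spans 89.0% of 4932416K20Rik against 10.3% of Gm20644 and 12.2% of Gm48353.

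No listed neighbour had reads in both mitochondria libraries and 0 in both others. GENCODE placed 34 other genes within 100 kb of the 3, of which 11 were listed, 5 near Gm20644, 1 near 4932416K20Rik and 5 near Gm48353. Of those 11, 7 were lower in both mitochondria libraries than in both others and 1 was higher, whereas of all listed genes 51.7% were lower and 5.20% higher. No read was found in either mitochondria library for 4 of them. Ces2a was also at 0 in both non-mitochondrial libraries, with reads in 1 mitochondria library.

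The nearest listed neighbour of Gm20644 was Cdk12, the kinase that promotes elongation by RNA polymerase II, on the same strand and 6877 bp before its start. Cdk12 had 8 and 7 normalised counts in mitochondria, 1 read in each, and 73 and 85 in the other 2 libraries. Its log2 fold change on the log2(normalised count + 1) scale was −3.23 ± 0.42 (SE), which missed the threshold (limma, adjusted p = 0.0549). Med1, a subunit of the Mediator complex, had 33 and 0 in mitochondria and 114 and 111 in the other 2 libraries. Its log2 fold change of −4.28 ± 2.0 (limma, adjusted p = 0.331) was −6.83 without mitochondria replicate 1 and −1.74 without replicate 2. Tcap, a cap protein of the titin filament in muscle, stood 96366 bp away with 33 and 41 in mitochondria and 4 and 7 in the other 2 libraries. Its log2 fold change was 2.58 ± 0.50 (limma, adjusted p = 0.146), and the direction turned when values were scaled to all or to nuclear reads. The skeletal muscle list had 304 and 112 reads in mitochondria, and its part in Tcap was not tested. Stard3, of cholesterol transport in late endosomes, had 0 and 0 against 9 and 5, and the microRNA gene Mir5119 0 and 0 against 1 and 2.

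Around Gm48353, the host gene Tet1, which oxidises methylated cytosine, was listed at 8 and 0 in mitochondria and at 4 and 1 in the other 2 libraries. That is 1 read in replicate 1 and 0 in replicate 2, against 11 and 15 reads of Gm48353 within its span. Per kb of exon, Tet1 had 0.259 normalised counts in mitochondria and Gm48353 52.4. Ccar1, a coactivator of transcription, had 33 and 35 in mitochondria and 91 and 99 in the other 2 libraries (log2 fold change −1.46 ± 0.41, limma, adjusted p = 0.235). Slc25a16, a carrier of the mitochondrial inner membrane, had 33 and 0 against 49 and 52, with a log2 fold change of −3.14 ± 2.0 (limma, adjusted p = 0.417) that was −5.69 without mitochondria replicate 1 and −0.60 without replicate 2. Dna2, a nuclease and helicase, had 0 and 0 against 3 and 3, and the TEC gene Gm48146 0 and 0 against 0 and 2.

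Around 4932416K20Rik, the lone listed gene within 100 kb was the carboxylesterase Ces2a, 53293 bp away on the same strand. Ces2a had 125 and 0 normalised counts in mitochondria, 15 reads in replicate 1 and none in replicate 2, and 0 and 0 in the other 2 libraries, so no fold change is given. The liver list had 1281 and 104 reads in these libraries, and its part in Ces2a was not tested. On the other side the nearest listed gene was Ces2g, 162665 bp away, with 17 and 7 in mitochondria and 2 and 2 in the other 2 libraries.

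**Figure D5:**
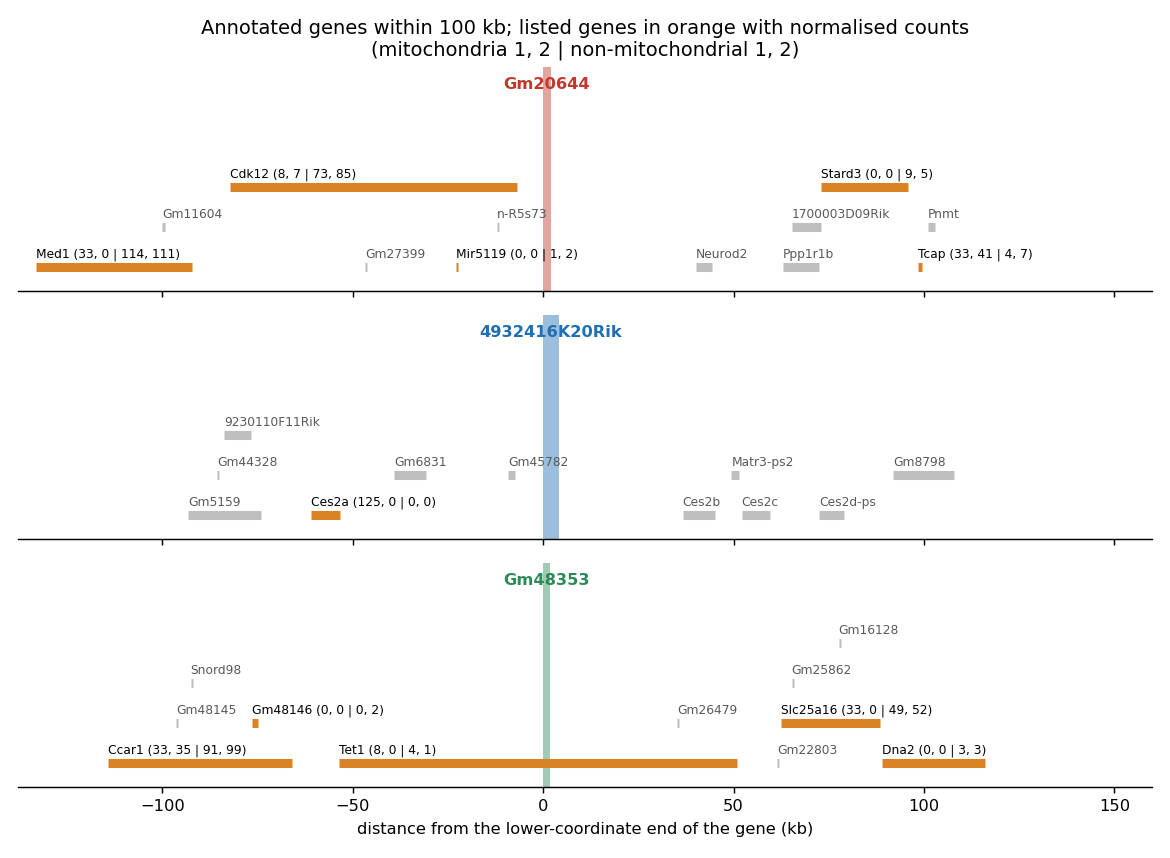
Annotated genes within 100 kb of Gm20644, 4932416K20Rik and Gm48353 (x axis, distance in kb from the lower-coordinate end of each gene, marked by the coloured band); height only separates labels. The 11 listed genes are orange with their normalised counts in mitochondria replicates 1 and 2 and, after the bar, non-mitochondrial replicates 1 and 2, and the genes in grey are not listed.

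Of the 11 listed neighbours, 6 had a mean of at least 10 and were tested, and none passed (limma, adjusted p under 0.05), with 3 at an unadjusted p under 0.05. At that unadjusted threshold were 1488 of all 8215 tested genes (18.1%). Over all 8215 genes tested, 428 passed (5.21%), 66 of them higher in mitochondria (0.803%) and 362 lower (4.41%). Across the 8215 genes the median log2 fold change was −1.23, and relative to it Cdk12 was at −2.0, Ccar1 at −0.23 and Tcap at 3.81. edgeR, run on the reads of the mitochondria libraries and on the deposited values of the other 2 taken as if they were reads, called 1 neighbour, Ces2a (adjusted p = 0.0382), whose reads lay in 1 library.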

How the data were processed

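RNA of 2 mitochondria and 2 non-mitochondrial libraries was sequenced as single-end reads of 75 bases. Per the labels, the authors used Trimmomatic 0.39, STAR 2.7.10a, featureCounts 2.0.2 and DESeq2 1.30.1 on mm10. According to the methods, reads of several positions or genes were left out and the fragmentation time was adjusted for mitochondrial samples, so library preparation may have differed with the fraction. Whether counting used strand is not given in the sources used here. The deposited values are a signal, gene counts divided by the authors' size factors and rounded. Whole reads were recovered in the mitochondria libraries (100.0% of values within 1 unit, a weak check at high values), where 1 read was worth 8.32 and 6.90 units in replicates 1 and 2. Normalised totals were 1590096 and 1905303 in the non-mitochondrial libraries, with the depth unknown.

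Loci and transcripts came from GENCODE M21, whose coordinates were those of 99.1% of the listed genes. Shared stretches were found with BLAST 2.17.0 at word size 11. Genes averaging 10 or more normalised counts were tested with limma 3.58.1 in R 4.3.3, as log2(value + 1), without trend, with Benjamini-Hochberg adjustment. Alternatives covered pseudocount, filter, scaling, trend, the replicate block, left-out libraries, the window, the gene length and the match length. They also covered edgeR 4.0.16, with mitochondria reads and the deposited non-mitochondrial values taken as counts. The step recovery and the fits were tested on simulated data. Neighbours were named by position, alike genes as the 5 nearest by distance and matches by length. The genes just outside the rule were picked after their values were seen. The stretches of low complexity of 4932416K20Rik and Gm48353 are not reported here. The 3 genes, the rules and the lists were chosen with earlier results of these data known.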

Additional observations from a re-analysis of the deposited data

How the results depend on the processing

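The 3 other scalings of the 3 genes were put back to the mean deposited total, which holds their means near the deposited ones by construction, so they say nothing about stability; 1 of them, reads of nuclear genes without a mitochondrial match, was chosen after seeing the data. The pattern was met by 11 genes as reported, by 10 with at least 3 reads in both mitochondria libraries, and by 68 with up to 1 unit allowed in both non-mitochondrial libraries. Leaving out single libraries, also chosen after seeing the data, gave 11 to 128 genes, with 128 without non-mitochondrial fraction replicate 1 and 31 without replicate 2, so those libraries set the count. With 30 bp matches, 1357, 2224 and 2812 listed genes shared a stretch with Gm20644, 4932416K20Rik and Gm48353.

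None of the 6 tested neighbours was called by limma as reported, nor with a pseudocount of 10, TMM, trend or scaling to nuclear reads without a mitochondrial match, nor were the 2 with a mean of at least 50. Without a filter 5 of 11 were called and with 500 kb around each gene 1 of 36 (Rufy2). Of the same 6, 5 were called as CPM over all genes, 4 as CPM over nuclear genes and 1 by edgeR, in which deposited values stood in for the unknown reads of the non-mitochondrial libraries. CPM over all genes put the median log2 fold change over genes at −7.15 and CPM over nuclear genes to −4.41. Without single libraries 0 to 5 neighbours were called, 5 without mitochondria replicate 1 and 4 without replicate 2, where the lone sample is assumed to vary like the other group. Tcap turned to −3.66 as CPM over all genes and −0.69 as CPM over nuclear genes, and Ces2a, whose value over a group listed at 0 is set by the pseudocount or prior count, was 0 without mitochondria replicate 1, 6.98 without replicate 2 and 8.61 by edgeR. Over all genes, 66 were higher and 362 lower as reported, 53 and 1 with a pseudocount of 10, 143 and 3587 without a filter, 64 and 11 with a mean of at least 50, 13 and 7963 as CPM over all genes, 65 and 7167 as CPM over nuclear genes, 251 and 49 by edgeR, and 0 to 622 higher and 0 to 3864 lower without single libraries.

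The labels gave same-numbered libraries no shared origin beyond the number, and with 2 pairs this could not be settled. In both fractions the liver sums were higher in number 1 (10660 against 718, and 175 against 5), as were the nuclear RNA sums (6259 against 911, and 16090 against 15729). The blood sums were higher in number 2 in both (225 against 628, and 290 against 611). Other lists went opposite ways in mitochondria and in the other fraction. These were skeletal muscle (2530 against 773, and 244 against 505), brown adipocyte (1665 against 4410, and 6886 against 6130) and adipocyte (1257 against 3430, and 6746 against 6088). The mitochondrially encoded sums did so too. With the replicate block, 0 neighbours and 0 of 8215 genes were called by limma, against 428 without it, and the deviations of same-numbered libraries correlated at 0.112 over genes. With 11 to 25 reads per gene and library, changes within the counting intervals given above were not detectable.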
